A study of Mus musculus with 8 samples.

Results

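The amino acid response directed by the transcription factor Atf4, together with the cytosolic tRNA synthetases, was followed in activated CD4 T cells from wild-type mice and from mice labelled as lacking Bcl6 in T cells. The set was given as 47 gene symbols, and a member was taken where a transcript cluster of the array carried its symbol alone. With the brightest cluster of each gene kept, 44 of the 47 members were measured among 19938 genes tested. Aars was read only by a cluster shared with another gene, and Pycr1 and Dars had no cluster of their own name, so these were not analysed here. The members comprise 7 stress transcription factors and regulators, 5 other stress response genes, 8 enzymes of amino acid and one-carbon metabolism, 6 amino acid transporters and 18 tRNA synthetases.

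Naive CD4 T cells, helper T cells that have not met antigen and carry the tag Tf0 in the labels, were sorted from wild-type mice (WT, n = 4) and from conditional Bcl6-/- mice in which the deletion is T cell-specific (n = 4, Bcl6 cKO below). Bcl6 is a transcriptional repressor needed by follicular helper T cells. Before RNA was taken, both groups had been stimulated using anti-CD3 and anti-CD28 antibodies over 24 hours, which mimics antigen and costimulation, and no unstimulated cells were analysed here. Each sample was read on 1 Affymetrix whole-transcript array. The labels name no strain, age, sex, Cre line or deleted exon. They do not say whether the 4 samples of a group are separate mice, so the p-values cover the spread between samples only, and that spread may be technical. Values are log2 signals, so a difference of 1 is a 2-fold difference, and differences are Bcl6 cKO minus WT throughout.

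When amino acids run short or proteins misfold, kinases phosphorylate the initiation factor eIF2, which slows protein synthesis in general while the mRNA of Atf4 is translated more. Atf4 then switches on genes that make, import and charge amino acids, together with regulators such as Atf3, Ddit3 (CHOP) and Trib3. Because much of Atf4's control lies in translation, its mRNA need not follow its activity. T cells that leave quiescence enlarge and depend on imported amino acids and on one-carbon metabolism, and genes of this set are known to be induced by T cell activation.

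The arrays were alike in depth of signal, with medians between 7.57 and 7.64 over all genes. Bcl6 itself stood at 8.37 ± 0.20 (SD, n = 4) in WT and 8.74 ± 0.27 in Bcl6 cKO, so it was not lower on the arrays labelled knockout. Without knowing which exons its single cluster reads, this checks nothing about the labels. Kdm5d, Uty and Eif2s3y, all on the Y chromosome, read 9.47 to 10.75 on 3 WT arrays and 1 Bcl6 cKO array (high Y below) and 4.58 to 5.83 on WT replicate 4 and Bcl6 cKO replicates 2, 3 and 4 (low Y below), with Xist the reverse. The sexes, as read from these genes, were therefore unequal between the groups. WT replicate 4 also stood apart over all genes. Measured as the deviation from the gene's median over the arrays, its values spread more widely (interquartile range 0.18) than those of any other array (0.085 to 0.115). No member had a WT mean at or below 5.83, the highest signal of those Y-linked genes on the low Y arrays. The T cell genes Cd3e and Cd4 were bright in both groups, at 13.2 and 12.9 in WT. Markers of other cell types were dimmer but not all as low as that Y-linked signal. In WT, 3 of 4 B cell markers (5.15 for Ms4a1 to 7.41 for Cd79b) and 5 of 6 myeloid markers (5.46 for Adgre1 to 8.24 for Cd68) had means above 5.83. So did 2 of 5 CD8 T and NK cell markers, Cd8a and Cd8b1 (list range 4.12 for Klrb1c to 11.04 for Cd8b1). For comparison, the T cell gene Cd3d had a WT mean of 11.4.

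No member passed an adjusted p of 0.05 in limma over all genes, where 0.221% of all genes passed (0.105% higher and 0.115% lower). At an unadjusted p under 0.05 in limma, 5 members were higher (Atf3, Asns, Stc2, Hars and Kars) and 0 lower, against 10.8% of all genes in either direction (4.67% higher). In 32 of 44 members the Bcl6 cKO mean was above WT, against 51% of all genes. The median log2 difference was 0.07, against 0.0025 over all genes. Among genes with a mean signal in the top 25%, which include 31 of the members, 55.7% were above WT with a median of 0.015. For 39 of the 44 members the 95% confidence interval lay within 0.5 on either side of no difference. Over all genes the share was larger (19113 of 19938). The exceptions among the members were Atf3, Asns, Stc2, Sesn2 and Slc7a11. The groups did not overlap for 1 member, Atf3, where 5.97% of all genes had groups apart (2.33% with Bcl6 cKO higher and 3.64% lower).

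**Figure D1:**
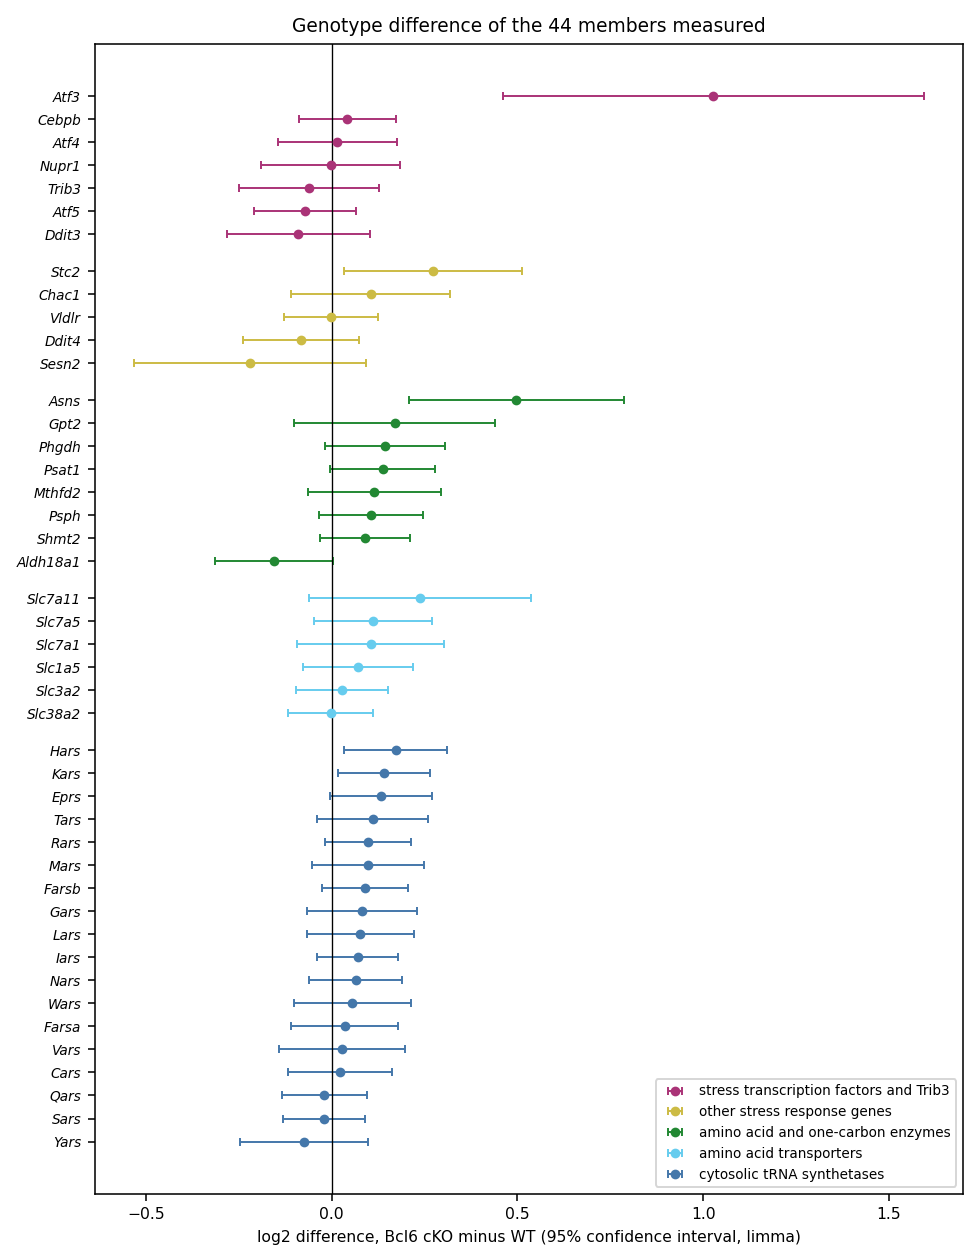
Log2 difference of each of the 44 measured members, Bcl6 cKO minus WT, with the 95% confidence interval from limma, grouped by role (n = 4 arrays a group). Atf3 (1.03) and Asns (0.50) lie farthest to the right, and the 18 synthetases lie between -0.075 and 0.17.

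Atf3, a stress-induced repressor and activator of the ATF/CREB family, had the largest difference of the set. Its signal was 8.78, 8.47, 8.74 and 8.29 on WT replicates 1 to 4, and 9.06, 10.42, 9.15 and 9.76 on Bcl6 cKO replicates 1 to 4. Every Bcl6 cKO array was above every WT array, but the Bcl6 cKO values spread widely, with replicates 2 and 4 well above replicates 1 and 3. The means of 8.57 ± 0.23 and 9.60 ± 0.63 (SD, n = 4 each) differed by 1.03 (SE 0.26, 95% interval 0.46 to 1.59), or 2.04-fold. Permuting its 8 values exactly gave a two-sided p of 0.0286, the smallest that 4 against 4 arrays allow, and limma over all genes an adjusted p of 0.16. Without Bcl6 cKO replicate 2 the difference was 0.75 (limma adjusted p = 0.145). That array also had the highest mean of the 6 myeloid markers, at 6.73 against 6.37 to 6.54 on the other arrays. Among these, Lyz2, which encodes lysozyme of myeloid cells, read 7.67 there and 5.82 to 6.58 elsewhere, and 3 of the 6 markers had a Bcl6 cKO mean above WT. Without Lyz2, a value added after the data were seen, the mean of the other 5 myeloid markers was 6.55 on that array, within the 6.45 to 6.60 of the other arrays. The part of such cells in the Atf3 signal was not tested, and in bulk RNA more cells of a type and more RNA per cell cannot be told apart.

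Asns, asparagine synthetase and a classical target of Atf4, came next. It read 9.96, 10.05, 9.71 and 9.81 on WT replicates 1 to 4, and 10.00, 10.38, 10.43 and 10.71 on Bcl6 cKO replicates 1 to 4. Bcl6 cKO replicates 2 to 4 lay above all WT arrays, while replicate 1 lay within the WT range. The means of 9.88 ± 0.15 and 10.38 ± 0.29 differed by 0.50 (SE 0.13, 95% interval 0.21 to 0.79), or 1.41-fold (limma adjusted p = 0.177, two-sided exact permutation p = 0.0571). Without Bcl6 cKO replicate 1, the only high Y array of its group, the difference was 0.62 and passed in limma (adjusted p = 0.0337). That fit sets low Y arrays alone against a WT group that is mostly high Y. Over all genes it had 39 higher and 100 lower past the threshold, against 21 and 23 with all arrays. With sex as a term the Asns difference was 0.395 (limma adjusted p = 0.402). Asns did not pass without any other array, with limma adjusted p-values of 0.248 to 0.44.

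**Figure D2:**
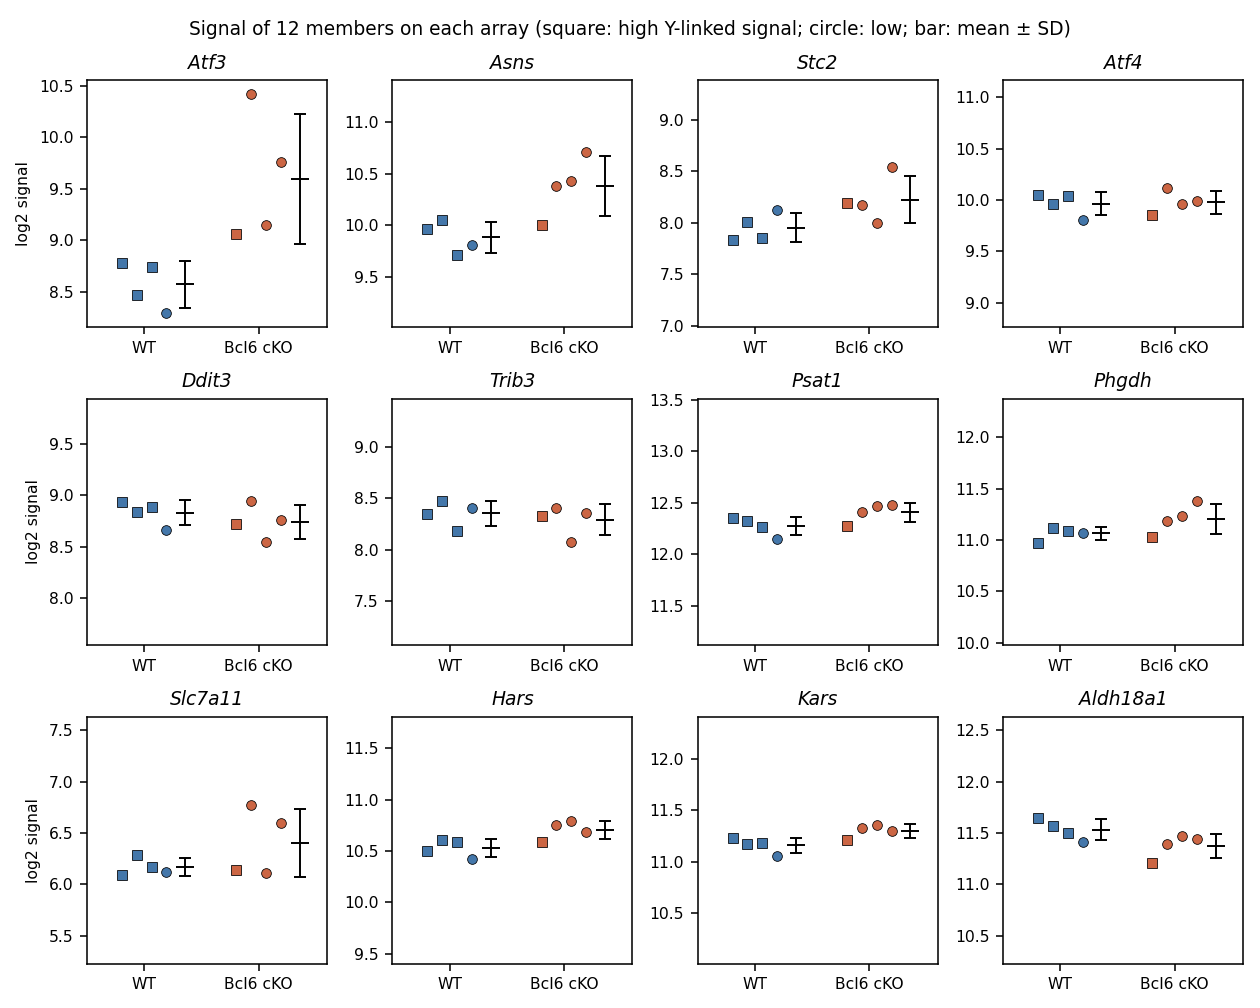
Log2 signal of 12 members on each of the 8 arrays, 4 WT (blue) and 4 Bcl6 cKO (orange), with squares for arrays with high and circles for arrays with low Y-linked signal, and bars for the mean ± SD. Every panel spans the same number of log2 units around the middle of the gene's range, and among these members only Atf3 has groups that do not overlap.

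The promoters of the members were compared for shared letters, a property that the arrays do not measure. The C/EBP-ATF response element is the composite site through which Atf4, paired with a C/EBP protein, binds many of its targets. Its core TGATGNAA (TTNCATCA when read from the other strand) was searched on both strands in the RefSeq promoters of GRCm38.p6, from 250 bases before to 50 bases after each gene's start. Of the 38 members with a promoter there, 13 (34.2%) held the core, against 4.51% of 27025 genes. They were Aars, Asns, Atf3, Chac1, Gars, Iars, Nupr1, Pycr1, Slc7a11, Tars, Trib3, Vldlr and Yars. The set was assembled from known responders, so this share is not independent of how it was chosen. The full cAMP response element TGACGTCA and the Bcl6 site core TTCCTNGAA, searched in the same way, were found in 0 of the 38 (2.03% and 1.86% of genes), so no matches of different motifs overlapped. That says only that these letters are not in these windows. The 250 bases before the start of Atf3 (chr1:191183334-191183583, minus strand) and of Asns (chr6:7693210-7693459, minus strand), which lie upstream of the transcripts, are shown because these genes differed most, with the core in capitals.
Atf3: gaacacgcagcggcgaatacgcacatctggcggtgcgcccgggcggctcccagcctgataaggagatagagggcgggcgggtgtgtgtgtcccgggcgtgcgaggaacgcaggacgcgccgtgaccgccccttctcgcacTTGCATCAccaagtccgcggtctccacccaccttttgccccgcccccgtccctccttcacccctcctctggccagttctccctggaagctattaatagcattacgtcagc
Asns: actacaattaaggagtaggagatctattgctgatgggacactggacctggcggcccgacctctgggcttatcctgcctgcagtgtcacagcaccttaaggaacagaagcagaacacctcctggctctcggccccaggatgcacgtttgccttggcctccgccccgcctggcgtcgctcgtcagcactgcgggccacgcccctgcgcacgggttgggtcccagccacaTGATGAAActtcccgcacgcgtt
Shorter stretches around the core follow for 6 other members, to show that the same letters stood upstream of genes with differences from 0.24 (Slc7a11) to 0.00 (Nupr1 and Vldlr). Slc7a11, Nupr1 and Vldlr were dim, with WT means of 6.17, 7.22 and 6.31, below the array medians of 7.57 to 7.64. Differences of dim genes are compressed, so a value of 0.00 there says little. The stretches come from Chac1 (chr2:119351029-119351076, plus strand), Slc7a11 (chr3:50443633-50443699, minus strand), Nupr1 (chr7:126625553-126625600, minus strand), Vldlr (chr19:27216800-27216847, plus strand), Gars (chr6:55037951-55037998, plus strand) and Tars (chr15:11399659-11399693, minus strand).
Chac1: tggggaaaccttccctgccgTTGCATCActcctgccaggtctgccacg
Slc7a11: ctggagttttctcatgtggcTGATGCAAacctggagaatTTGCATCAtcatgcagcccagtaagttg
Nupr1: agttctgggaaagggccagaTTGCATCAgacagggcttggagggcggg
Vldlr: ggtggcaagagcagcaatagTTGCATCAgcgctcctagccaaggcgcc
Gars: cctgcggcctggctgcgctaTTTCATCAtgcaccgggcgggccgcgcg
Tars: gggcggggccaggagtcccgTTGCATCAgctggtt
Among measured members, the 11 with the core had a median log2 difference of 0.08 (range -0.075 to 1.03, 7 above WT). The 24 with a promoter but without the core had a median of 0.07 (range -0.22 to 0.27, 16 above WT). A match is a run of letters and not a measured binding site.

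For Atf4 itself no difference was detectable over all 8 arrays, though its sign differed between the sets by Y-linked signal (given below). Its mRNA read 10.05, 9.96, 10.04 and 9.81 on WT replicates 1 to 4 and 9.85, 10.12, 9.96 and 9.99 on Bcl6 cKO replicates 1 to 4, so the groups overlapped throughout. The log2 difference was 0.015 (SE 0.07, 95% interval -0.15 to 0.18, 1.01-fold, limma adjusted p = 0.974). Its translation was not measured. Of the 7 stress factors and regulators 3 were above WT, with a median of 0.00 (-0.04 without WT replicate 4). For 6 of 7 the interval lay within 0.5 of no difference (19113 of 19938 genes). Ddit3, the pro-apoptotic partner of C/EBP proteins, read 8.93, 8.84, 8.89 and 8.66 in WT and 8.72, 8.94, 8.54 and 8.76 in Bcl6 cKO (replicates 1 to 4, as in all such lists below). The difference was -0.09 (SE 0.09, 95% interval -0.28 to 0.10, 0.94-fold, limma adjusted p = 0.792). Trib3, a pseudokinase that restrains Atf4, read 8.35, 8.47, 8.18 and 8.41 in WT and 8.33, 8.41, 8.07 and 8.36 in Bcl6 cKO. It differed by -0.06 (SE 0.09, 95% interval -0.25 to 0.13, 0.959-fold, limma adjusted p = 0.878). Both of these targets overlapped between the groups, unlike Atf3. Cebpb differed by 0.04, Atf5 by -0.07 and Nupr1, a small chromatin-associated stress protein, by 0.00.

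Of the 5 other stress response genes 2 were above WT. Stc2, which encodes the secreted glycoprotein stanniocalcin-2, read 7.83, 8.01, 7.85 and 8.12 in WT and 8.19, 8.17, 8.00 and 8.54 in Bcl6 cKO. Bcl6 cKO replicate 3 was inside the WT range, and the difference was 0.27 (SE 0.11, 1.21-fold, limma adjusted p = 0.388). Chac1, which degrades glutathione, read 8.60, 8.42, 8.38 and 8.35 in WT and 8.34, 8.80, 8.43 and 8.60 in Bcl6 cKO, again with replicate 2 highest. Its difference was 0.105 (SE 0.10, 95% interval -0.11 to 0.32, 1.08-fold, limma adjusted p = 0.778). Sesn2, a leucine sensor that restrains mTORC1, had the lowest difference of the set, -0.22 (SE 0.14), and 8.39 on Bcl6 cKO replicate 1 against 8.67 to 9.24 on all other arrays. Ddit4, another inhibitor of mTORC1, differed by -0.08 and the lipoprotein receptor gene Vldlr by 0.00.

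Enzymes of amino acid and one-carbon metabolism had 7 of 8 members above WT, with a median log2 difference of 0.13. Without WT replicate 4 the median was 0.06, again with 7 of 8 above WT, and within the high Y arrays 1 of 8 was above. The serine synthesis enzymes Phgdh, Psat1 and Psph act one after the other. Phgdh read 10.97, 11.12, 11.09 and 11.07 in WT and 11.03, 11.18, 11.23 and 11.38 in Bcl6 cKO (difference 0.14, SE 0.07, 1.1-fold, limma adjusted p = 0.532). Psat1 read 12.35, 12.32, 12.27 and 12.15 in WT and 12.28, 12.41, 12.47 and 12.48 in Bcl6 cKO (difference 0.14, SE 0.06, 1.1-fold, limma adjusted p = 0.475). In both, Bcl6 cKO replicates 2 to 4 lay above all WT arrays and replicate 1 did not. Psph differed by 0.105 (95% interval -0.03 to 0.24), and its groups overlapped. The mitochondrial one-carbon enzymes Shmt2, which passes the serine carbon to folate, and Mthfd2 differed by 0.09 and 0.115. Mthfd2 read 11.40, 11.39, 11.31 and 11.08 in WT and 11.26, 11.42, 11.46 and 11.50 in Bcl6 cKO, with WT replicate 4 lowest and the other WT arrays within the Bcl6 cKO range (SE 0.08, 1.08-fold, limma adjusted p = 0.677). Gpt2, mitochondrial alanine aminotransferase, differed by 0.17 with 7.94 on WT replicate 4 and 8.44 to 8.67 on the other 7 arrays. Aldh18a1, which starts proline synthesis from glutamate, was the exception in sign. It read 11.65, 11.57, 11.50 and 11.41 in WT and 11.21, 11.39, 11.47 and 11.44 in Bcl6 cKO, a difference of -0.155 (SE 0.07, 0.898-fold, limma adjusted p = 0.475).

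Among the 6 transporters 5 were above WT, with a median log2 difference of 0.09. Without WT replicate 4 the median was 0.03 with 6 of 6 above WT, and within the high Y arrays 1 of 6 was above. Slc7a11, the cystine importer, was the most variable, at 6.09, 6.29, 6.17 and 6.12 in WT and 6.14, 6.77, 6.11 and 6.60 in Bcl6 cKO. As for Atf3, Bcl6 cKO replicates 2 and 4 were high, while replicates 1 and 3 lay within the WT range (difference 0.24, SE 0.14, 1.18-fold, limma adjusted p = 0.579). Unlike Atf3, Slc7a11 was dim, with a WT mean of 6.17 below the array medians of 7.57 to 7.64. The filter on mean signal removed it. Slc7a5, which carries leucine and other large neutral amino acids, read 12.64, 12.62, 12.61 and 12.45 in WT and 12.52, 12.69, 12.82 and 12.74 in Bcl6 cKO (difference 0.11, SE 0.07, 95% interval -0.05 to 0.27, 1.08-fold, limma adjusted p = 0.634). Its heavy chain partner Slc3a2 read 12.95, 12.93, 12.91 and 12.83 in WT and 12.82, 13, 12.93 and 12.98 in Bcl6 cKO (difference 0.03, SE 0.06, 95% interval -0.10 to 0.15, 1.02-fold, limma adjusted p = 0.922). The groups overlapped for both chains. The arginine and lysine importer Slc7a1 differed by 0.105, and the glutamine carrier Slc1a5 by 0.07. Slc38a2, which is known to respond to amino acid shortage, differed by 0.00 (95% interval -0.12 to 0.11).

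The cytosolic tRNA synthetases, which load each tRNA with its amino acid, had small differences throughout. Of 18 measured, 15 were above WT, with a median log2 difference of 0.07 and a range of -0.075 to 0.17. All 18 intervals lay within 0.5 of no difference, as did those of 19113 of 19938 genes. Hars, for histidine, read 10.50, 10.61, 10.59 and 10.42 in WT and 10.59, 10.75, 10.79 and 10.68 in Bcl6 cKO (difference 0.17, SE 0.06, 1.13-fold, limma adjusted p = 0.346). Kars, for lysine, read 11.23, 11.17, 11.18 and 11.06 in WT and 11.21, 11.33, 11.36 and 11.30 in Bcl6 cKO (difference 0.14, SE 0.06, 1.1-fold, limma adjusted p = 0.389). In both, Bcl6 cKO replicate 1 was the array that overlapped WT. Eprs, the fused enzyme for glutamate and proline, read 11.70, 11.60, 11.65 and 11.47 in WT and 11.66, 11.75, 11.83 and 11.71 in Bcl6 cKO (difference 0.13, SE 0.06, 1.1-fold, limma adjusted p = 0.484). Rars, for arginine, read 12.24, 12.22, 12.25 and 12.11 in WT and 12.24, 12.30, 12.37 and 12.30 in Bcl6 cKO (difference 0.10, SE 0.05, 1.07-fold, limma adjusted p = 0.553). Farsb, a subunit of the phenylalanine enzyme, read 11.56, 11.48, 11.58 and 11.44 in WT and 11.57, 11.57, 11.67 and 11.61 in Bcl6 cKO (difference 0.09, SE 0.05, 1.06-fold, limma adjusted p = 0.587). For each of these 3 enzymes, and also for Hars and Kars, WT replicate 4 was the lowest array. Without it Hars differed by 0.14 and Kars by 0.11, and within the high Y arrays each differed by 0.02. Wars, the tryptophan enzyme that interferon also induces, read 11.33, 11.54, 11.30 and 11.40 in WT and 11.33, 11.59, 11.42 and 11.45 in Bcl6 cKO, a difference of 0.055 (SE 0.07, 1.04-fold, limma adjusted p = 0.863). It was highest on replicate 2 of both groups. Qars, Sars and Yars, for glutamine, serine and tyrosine, were below WT (-0.02, -0.02 and -0.075), and the other synthetases had differences of 0.02 to 0.11.

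**Figure D3:**
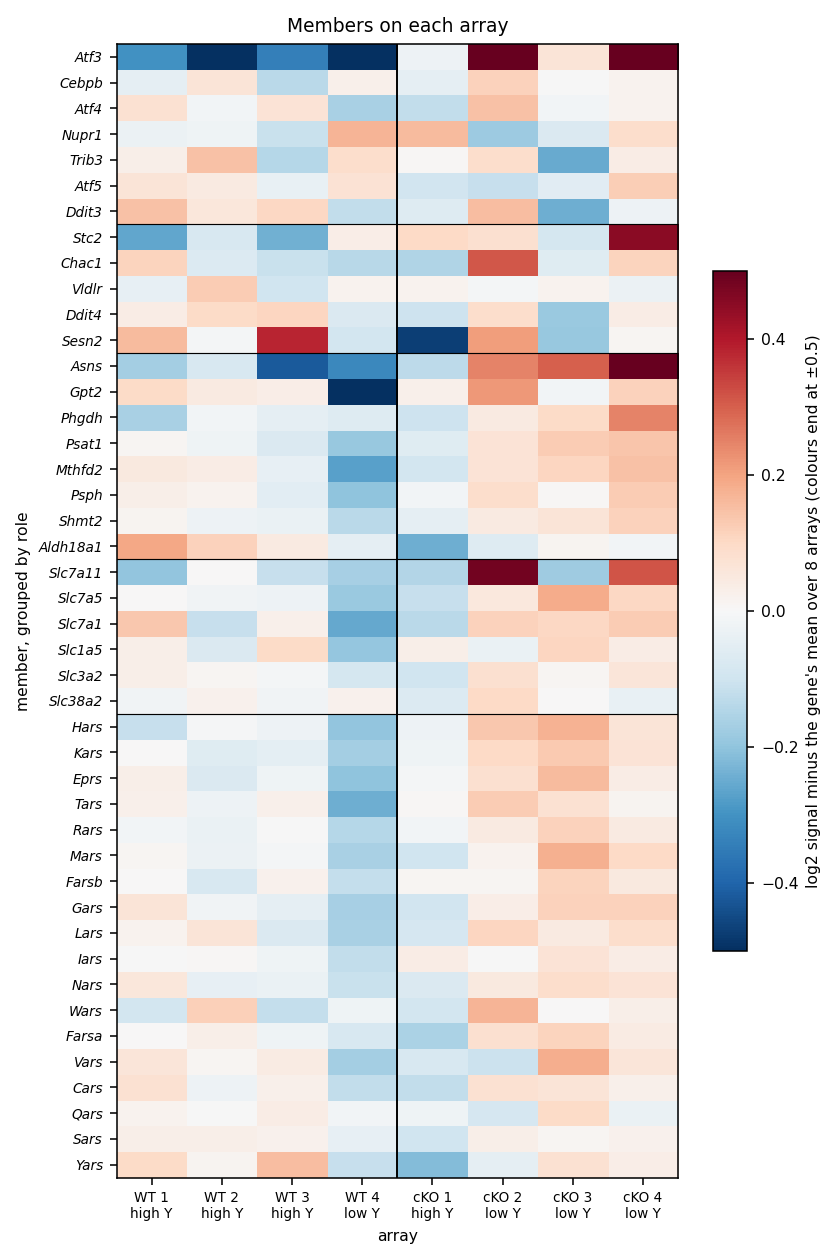
Log2 signal of each member minus its mean over the 8 arrays, with members in rows by role and arrays in columns (black line between WT and Bcl6 cKO; high Y and low Y mark the Y-linked signal). In the mean signal over the 18 synthetases WT replicate 4 is lowest (11.32), Bcl6 cKO replicate 1 next (11.39) and Bcl6 cKO replicates 2 to 4 highest (11.50 to 11.55). Single rows differ, with WT replicate 4 lowest in 12 of the 18.

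Many members shared a pattern over the arrays. WT replicate 4 was the lowest of all 8 arrays for 22 of 44 members, against 21.8% of all genes, and for 12 of the 18 synthetases. Bright genes in general were often lowest on that array. Its 75th percentile was 9.64, against 9.69 to 9.76 on the others, and it was lowest for 45% of the 4985 genes with a mean signal in the top 25%. Of the 31 members among these it was lowest for 20. Without WT replicate 4, the median of the members was 0.04 with 32 of 44 above WT (53% of all genes). The synthetases then had a median of 0.04, with 13 of 18 above WT.

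Split by Y-linked signal, most members had differences of opposite sign in the high Y and low Y arrays. Within the low Y arrays (Bcl6 cKO replicates 2 to 4 against WT replicate 4) 39 of 44 members were above WT, against 47.5% of all genes, with a median log2 difference of 0.20. Within the high Y arrays (Bcl6 cKO replicate 1 against WT replicates 1 to 3) 12 of 44 were above WT, against 43.2% of all genes, with a median of -0.05. All 18 synthetases were above WT within the low Y arrays and 6 of 18 within the high Y arrays. Among the brightest 25% of genes the shares were 68.7% and 35.1%, and of their 31 members 30 and 8 were above WT. At an unadjusted p under 0.05 in limma, 21 members were found within the low Y arrays, all higher (19.7% of all genes in either direction, 12.1% higher), and 4 within the high Y arrays (4.27% of all genes). At an adjusted p of 0.05 no member passed within the low Y arrays (smallest 0.0511, Gpt2), where 0.216% of genes did. Since 1 genotype has a single array in each set, these fits borrow its spread from the other arrays. The sex of the mice and the state of those single arrays cannot be told apart here.

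The difference between the 2 sets was tested in limma as an interaction of genotype and sex, a test added after the data were seen. No member passed over all genes (smallest adjusted p = 0.344), and 0.00502% of genes did. At an unadjusted p under 0.05, 24 of 44 members were found, 23 of them with the larger difference within the low Y arrays. Over all genes 11.8% met that p, 7.81% in that direction, and among the brightest 25% of genes 17% met it. Gpt2 had the smallest p, with a difference of 0.62 within the low Y and -0.03 within the high Y arrays (limma adjusted p = 0.344), and Mthfd2 followed with 0.38 and -0.11. Atf3 was above WT within both, by 1.49 and 0.40, and so was Asns, by 0.70 and 0.09. Atf4, also among the 24, differed by 0.21 within the low Y and by -0.17 within the high Y arrays. With sex as a term in the fit, Atf3 had a difference of 0.94 (limma adjusted p = 0.373) and Asns of 0.395 (adjusted p = 0.402).

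**Figure D4:**
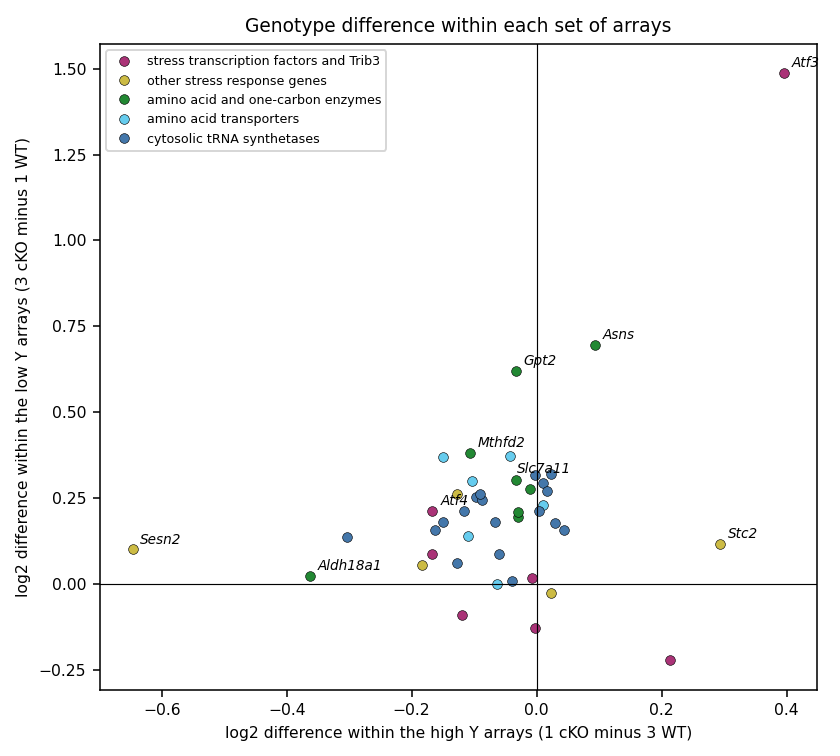
Log2 difference of each member within the high Y arrays (x axis, Bcl6 cKO replicate 1 minus 3 WT arrays) and within the low Y arrays (y axis, 3 Bcl6 cKO arrays minus WT replicate 4). Most members lie in the upper left, above 0 on the y axis (39 of 44) and at or below 0 on the x axis, and Atf3 lies at the upper right.

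Related genes outside the set are described by fixed lists, and none of the lists that follow had a member past the threshold in limma over all genes. Of 13 kinases, regulators and partners of eIF2, 12 were above WT with a median of 0.05. WT replicate 4 was the lowest array for 11 of the 13, without it 8 of 13 were above WT with a median of 0.02, and within the high Y arrays 2 of 13 were. Gcn1, which helps the amino acid sensing kinase, differed by 0.19 (adjusted p = 0.405), and Eif2ak2, the double-stranded RNA kinase, by 0.185, with groups that did not overlap (adjusted p = 0.41). Mitochondrial synthetases had 11 of 16 members above WT and a median of 0.03, with Nars2 (0.12, adjusted p = 0.392) and Rars2 (0.165, adjusted p = 0.437) at the smallest p. Without WT replicate 4, 8 of these 16 were above WT (53% of all genes) with a median of 0.00. Within the low Y arrays 15 were above WT and within the high Y arrays 6. All 3 scaffold proteins of the synthetase complex were above WT (Aimp1 and Eef1e1 0.15, Aimp2 0.08), and their median of 0.15 was 0.05 without WT replicate 4.

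Among other amino acid transporters, Slc16a10, a carrier of aromatic amino acids, read 8.88, 8.73, 8.87 and 8.61 in WT and 8.94, 9.48, 9.49 and 9.34 in Bcl6 cKO. The groups did not overlap, and the difference of 0.54 had an adjusted p of 0.108 in limma. Slc7a3, a cationic amino acid transporter, differed by 0.40 (adjusted p = 0.204), and 8 of the 11 transporters were above WT (median 0.095, and 0.04 without WT replicate 4). Within the high Y arrays 7 of the 11 were above WT, with a median of 0.01. Slc36a1, a lysosomal amino acid carrier named after its values were seen, was lower on all Bcl6 cKO arrays than on any WT array (-0.14, limma adjusted p = 0.382). Among 16 further enzymes 10 were above WT (7 without WT replicate 4, with a median of 0.00 in place of 0.04), with Shmt1 (0.25) and Mthfd1 (0.21), the cytosolic one-carbon enzymes, at the smallest p. Of 12 further Atf4-responsive genes 6 were above WT (8 without WT replicate 4). There Sqstm1, the autophagy receptor p62, was lower on all Bcl6 cKO arrays than on any WT array (-0.185, limma adjusted p = 0.163), and Ero1a, an oxidase of protein folding, higher on all (0.185, adjusted p = 0.226). Endoplasmic reticulum chaperones and sensors had 7 of 12 above WT, also without WT replicate 4 (median 0.05, then 0.03), with Hsp90b1 at 0.17 (limma adjusted p = 0.207) and Creld2 at 0.18 (adjusted p = 0.31). Within the high Y arrays 3 of the 16 further enzymes, 5 of the 12 Atf4-responsive genes and 4 of these 12 were above WT.

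All 12 proliferation genes were above WT, with a median log2 difference of 0.17 (0.11 without WT replicate 4) and none past the threshold, led by Top2a (0.44, limma adjusted p = 0.226) and Bub1 (0.58, adjusted p = 0.322). Their mean signal was 10.73, 10.97, 10.75 and 10.55 in WT and 10.88, 10.79, 11.18 and 11.21 in Bcl6 cKO, so WT replicate 4 was lowest and Bcl6 cKO replicates 3 and 4 highest. Within the high Y arrays 10 of these 12 genes were above WT, with a median of 0.04, against 43.2% of all genes. Of 8 activation genes 4 were above WT, with the growth factor gene Il2 (0.57, limma adjusted p = 0.343) and Myc (0.17, adjusted p = 0.35) at the smallest p. All 5 measured T cell markers were below WT, with differences of -0.17 to -0.07. Of the 5 markers of CD8 T and NK cells 4 were below WT, with list means of 6.64 to 6.73 in WT and 6.44 to 6.55 in Bcl6 cKO. Among these, the CD8 chain gene Cd8b1 read 10.90 to 11.12 in WT and 10.41 to 10.78 in Bcl6 cKO, while Cd8a read 6.99 and 6.97 (Cd8b1, limma adjusted p = 0.0541). Of the 4 measured B cell markers 3 were above WT, with list means of 6.40 to 6.46 in WT and 6.38 to 6.56 in Bcl6 cKO. The part of these genes' cells or programmes in the members' differences was not tested.

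Over the 8 arrays, the signal of Atf3 was most like that of Rab8b (Pearson r = 0.983), Spata5, Cd44, Dyrk3 and Nr6a1 (r = 0.963 to 0.971) among 19937 other genes. Asns was most like Prc1 (r = 0.982), a protein of the dividing spindle, with 1700017B05Rik, Cd300c, Mfsd13a and Slc7a3 next (r = 0.968 to 0.974). Atf4 was most like Gadd45b (r = 0.969), followed by Miga1, Trim41, 2700081O15Rik and Klhl2 (r = 0.943 to 0.959). These genes were picked as the highest of many and share the arrays, so the values are descriptions over 8 points.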

How the data were processed

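Each of 8 samples has 1 array, for which the authors deposited a log2 signal for every transcript cluster. The biotinylated DNA on it was made from 100 ng of total RNA, per the labels' protocols. The tools named are RMA and Partek (per the submitters' processing notes), without versions or settings. RMA corrects background, normalizes across arrays and summarises probes, which compresses differences of dim genes. The number of arrays limits the precision.

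Of 35556 clusters, 21789 carried 1 gene symbol in the platform annotation, 1621 several and 12146 none. Only the first were named. For genes with several clusters (999), the brightest over the 8 arrays was kept. All 19938 genes were fitted with genotype alone in limma 3.58.1 (lmFit, eBayes with no trend, under R 4.3.3), with Benjamini-Hochberg adjustment over all of them at 0.05 and no filter on dim genes. Only the genotype fit was tried on simulated data, with independent normal noise. The fits by sex, the permutation and the motif search were not tried in this way. The simulated arrays had neither unequal sexes nor the wide spread of WT replicate 4. Sex was read from the Y-linked genes. Differences within a sex come from a fit of all 8 arrays with 4 means and 1 spread. Every matched member is reported, in full the 12 with the smallest p and a fixed choice by role, from each related list the genes with the smallest p, and for Atf3, Asns and Atf4 the 5 genes most correlated over the arrays. Other genes named were chosen after their values were seen. The members, the lists, the tests and the other settings were chosen with earlier results of these data known. The interaction test and the brightest 25% of genes were added after seeing the data. Promoters came from RefSeq (GRCm38.p6), matched by symbol for 38 of 47 members, and are not part of the array data.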

Additional observations from a re-analysis of the deposited data

Results flagged for a closer look

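In groups of 4 arrays, a sample was set apart where its gap to the nearest other exceeded Dixon's 95% critical value times the group's range, which chance gives in about 1 of 20 groups. Of 88 groups (44 members in each genotype) 5 met this. Many members share a pattern over the same arrays, so the groups are not independent and that rate cannot be set against the count. WT replicate 4 was the low sample for Gpt2 (7.94, next 8.49), Slc7a5 (12.45, next 12.61) and Sars (11.82, next 11.88). Bcl6 cKO replicate 1 was the low sample for Slc7a1 (10.99, next 11.23) and Sars (11.76, next 11.87). All 5 were low samples, and both arrays are the lone ones of their genotype in their set by Y-linked signal.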

How the results depend on the processing

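Under the alternative settings run, no member passed except Asns without Bcl6 cKO replicate 1 (log2 difference 0.62, limma adjusted p = 0.0337). That array is the only high Y one of its group. The count of members past the threshold thus ran from 0 to 1 over the fits without 1 array. The members' median difference (0.07) ran from 0.04 to 0.10 over those fits, was -0.0517 within the high Y and 0.20 within the low Y arrays, and under the other settings moved by less than the spread between replicates (SD 0.0694). With the replicate block, 0 members passed (smallest adjusted p 0.152, for Stc2), against 15 genes higher and 20 lower over all genes, and no member's call differed from the fit without it. The labels do not say that a replicate number pairs samples. Deviations of same-numbered samples correlated at 0.0731, 0.206, 0.203 and 0.205, and 6 of 8 samples correlated best with their own number, a hint of pairing from the data. Since 1 of the 4 correlations was below 0.1, the numbers were not used to pair samples. Some activation genes split by odd and even replicate number in both genotypes. Nr4a1 read 13.11, 12.37, 13.11 and 12.31 in WT and 12.83, 12.09, 12.66 and 12.06 in Bcl6 cKO. Egr2 and Tnfrsf9 were also higher on odd numbers, Irf4 and Il2 on even ones, and Il2ra, Cd69 and Myc did not split so. With odd or even number as a term no member passed (smallest limma adjusted p 0.101 for Asns, and 0.104 for Atf3). Over all genes, the counts higher (21) and lower (23) ran from 5 (without Bcl6 cKO replicate 3) to 39 (without Bcl6 cKO replicate 1) and from 5 (without WT replicate 1 or 4 or Bcl6 cKO replicate 4) to 100 (without Bcl6 cKO replicate 1) over the fits without 1 array. The count lower was 61 with trend and robust options, 51 with array weights, 13 with median centring, 14 with quantile normalization and 52 with the filter on mean signal. Higher and lower were 5 and 5 with sex, 33 and 60 with odd or even replicate number, 5 and 5 with both, 0 and 0 within the high Y arrays (852 at an unadjusted p under 0.05 in limma), 32 and 11 within the low Y arrays, and 42 and 90 at a threshold of 0.1. The share of members with the TGATGNAA core was 26.3% in the 250 bases before the start alone (3.91% of genes). With 4 arrays a group the median standard error was 0.0653.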
